A study of Mus musculus with 4 samples.

Results

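The RNA components of RNase P and RNase MRP were followed through a map of RNA contacts in mouse spermatogonial stem cells, which maintain themselves in the testis and supply the cells that become sperm. The members were Rmrp, the RNA of RNase MRP, Rpph1, the RNA of RNase P, and Rprl1, Rprl2 and Rprl3, which are annotated as RNase P RNA-like copies. Every listed pair of RNAs with a member on either side was taken, which gave 1035 of 56636 pairs, and the members made up 5 of 13318 RNAs. Rmrp had 796 pairs and the RNase P RNAs together had 240.

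Contacts were measured by RIC-seq, in which RNA and protein are fixed in the cell with formaldehyde, RNA is cut, neighbouring RNA ends are joined, and the joined (chimeric) fragments are sequenced. The libraries comprised 2 labelled differentiation, made from spermatogonial stem cells after an induction whose agent and duration the sources used here did not give, and 2 labelled control, made from spermatogonial stem cells recorded as WT. No allele, transgene or treatment shared by both groups was named. Each value was a whole-number count of chimeric reads for a pair of RNAs in a library, and every listed pair had at least 1 count in all 4 libraries. A pair lost completely in either group was therefore not analysed here.

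RNase P is an RNA-protein enzyme that cuts the leader sequence from precursor transfer RNAs, and it also cuts the nuclear long noncoding RNAs Malat1 and Neat1 near their 3′ ends. RNase MRP, its close relative, sits mainly in the nucleolus, acts in the processing of precursor ribosomal RNA, and shares most of its protein subunits with RNase P. Both RNAs are made by RNA polymerase III. Among the partners that recur below, Gm42418 is listed in the gene table used here as a synonym of a pseudogene of small-subunit ribosomal RNA, and Gm26917 has no entry there.

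In assembly GRCm38.p6, with 1-based coordinates, Rmrp lies at chr4:43492785-43493059 and spans 275 bases. Rpph1 lies at chr14:50807447-50807771 and spans 325 bases. Rprl1 lies at chr6:69326937-69327174, Rprl2 at chr3:22251370-22251607 and Rprl3 at chr8:3803125-3803359, spanning 238, 238 and 235 bases. As RNase P RNA-like copies they may share sequence with Rpph1, but their sequences were not compared here. To the extent that they do, reads of a single RNA could be divided among these names, and the counts do not show whether a read joining Rpph1 to a copy came from 1 RNA or from 2. None of the 5 members had a listed pair with itself. The same held for all 136 RNAs of up to 400 bases with at least 100 counts, whereas 3319 of 5709 longer RNAs (58.1%) had such a pair.

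Total counts were 793129 and 1155923 in the differentiation libraries, and 1209031 and 1400011 in the control libraries. Pairs of the members held 1.25% and 1.39% of the counts with differentiation and 1.02% and 1.04% in control. By contact totals (the summed counts of all pairs of an RNA), 3 of 6 tested markers of undifferentiated spermatogonia were lower with differentiation and 3 of 4 tested meiosis markers were higher, while Id4, Nanos2 and Lin28a, which mark spermatogonial stem cells, were not listed. Of 4 tested germ line markers, 1 (Tdrd9) was higher and 0 were lower. Germ line marker levels summed to 148 and 192 CPM with differentiation and 52.7 and 47.9 CPM in control. Of the markers of other cells, 4 of 5 Sertoli cell markers were lower, and 4 of 5 fibroblast or feeder cell markers were lower and 1 higher. These counts are calls of the test given below. Among all 10993 tested RNAs it called 12.2% in either direction and 5.44% higher. Summed Sertoli marker levels were 552 and 507 CPM with differentiation and 846 and 977 CPM in control, and summed fibroblast marker levels were 1063 and 1093 CPM with differentiation and 1081 and 1045 CPM in control. The fibroblast sum held Tnc, a matrix protein gene, at 670 and 694 CPM with differentiation and 321 and 271 CPM in control, and the other 4 markers summed to 393 and 398 CPM with differentiation and 760 and 774 CPM in control. The part of these cells in the results below was not tested.

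Contact totals of RNase P RNA were higher with differentiation, whereas that of RNase MRP RNA stayed within the spread of the libraries. Of the 5 members, 3 passed the test of edgeR (quasi-likelihood, Benjamini-Hochberg adjusted p under 0.05), all of them higher, against 12.2% called in either direction and 5.44% called higher among 10993 tested RNAs. A contact total counts chimeric reads, so a change in RNA level, a change in contacts and a change in the mix of cells cannot be told apart.

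Rmrp had 5943 and 9427 counts in the differentiation libraries and 8640 and 10423 in the control libraries. Scaled for library size with edgeR (CPM), these were 4846 and 5089 with differentiation and 4999 and 5250 in control. The groups overlapped, with means of 4967 ± 172 CPM with differentiation and 5125 ± 178 CPM in control (SD, n = 2 each). The log2 change was -0.04 (SE 0.14, adjusted p = 0.884), and it was 0.11 when libraries were scaled by their column totals alone, a setting that moved the median of all RNAs to 0.16.

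Rpph1 had 3845 and 6430 counts with differentiation and 3600 and 4073 in control, or 3135 and 3471 CPM with differentiation and 2083 and 2052 CPM in control. Both differentiation libraries lay above both control libraries. The means were 3303 ± 238 CPM with differentiation and 2067 ± 22.1 CPM in control, a 1.60-fold difference (log2 change 0.68, SE 0.14, adjusted p = 0.0110). Leaving out either control library ended this call, with adjusted p-values of 0.165 without control 1 and 0.248 without control 2 at log2 changes of 0.69 and 0.67. Calls over all RNAs fell to 294 and 129 in those fits, against 1340 with all 4 libraries.

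Within a library, the ratio of the Rpph1 total to the Rmrp total needs no scaling between libraries. It was 0.647 and 0.682 with differentiation and 0.417 and 0.391 in control, without overlap. The exact two-sided permutation test gave p = 0.33, the smallest value that 2 libraries against 2 allow.

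The copies followed Rpph1. Rprl3 had 1990 and 2279 CPM with differentiation and 1186 and 1093 CPM in control, with means of 2135 ± 204 and 1140 ± 65.8 CPM, a 1.87-fold difference (log2 change 0.91, SE 0.15, adjusted p = 0.00269). Rprl2 had 107 and 103 CPM with differentiation and 60.8 and 66.5 CPM in control, a 1.64-fold difference (log2 change 0.72, SE 0.19, adjusted p = 0.0308). Rprl1 had 66.9 and 71.3 CPM with differentiation and 49.8 and 47.3 CPM in control, and its log2 change of 0.51 (SE 0.21) did not pass (adjusted p = 0.142).

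For all 3 copies the groups did not overlap, which was also so for 55.2% of all tested contact totals. The calls of Rprl3 and Rprl2 ended without control 1 (adjusted p = 0.0753 and 0.243) or control 2 (0.152 and 0.237). These are not separate results, because the totals of the copies consisted mostly of their pairs with Rpph1. For Rprl1 that was the single listed pair, and for Rprl3 it was 95.5% and 95.4% of the total with differentiation and 94.4% and 93.9% in control.

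**Figure D1:**
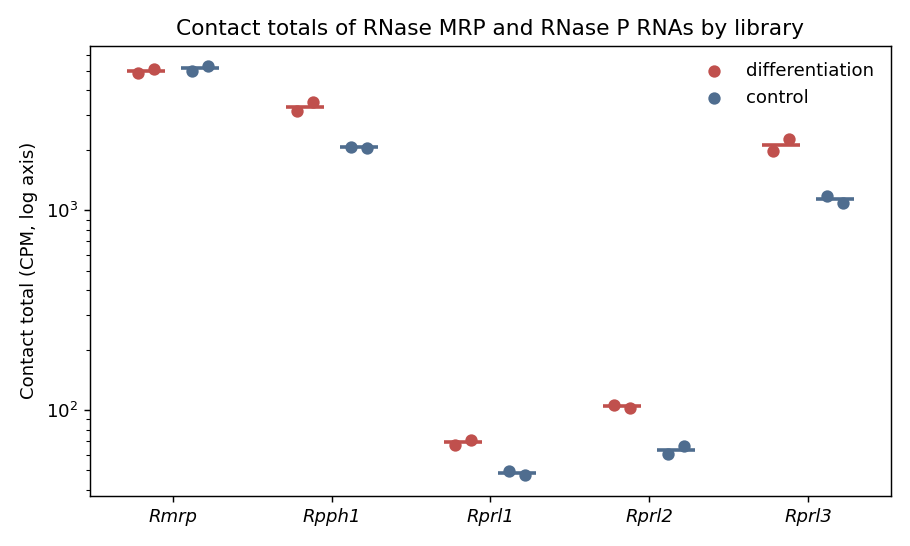
Contact totals of the 5 members in CPM (log axis), with a point for each library, differentiation left of control, and a line at the mean of 2 libraries. The points of Rmrp overlap between the groups, and for Rpph1 and the 3 copies both differentiation libraries lie above both control libraries.

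The higher Rpph1 total lay mainly in pairs of Rpph1 with its own copies. Pairs with Rprl1, Rprl2 and Rprl3 held 66.0% (95% Wilson interval 64.5 to 67.5%) and 67.3% (66.1 to 68.4%) of the Rpph1 counts with differentiation. In control they held 58.6% (57.0 to 60.2%) and 55.2% (53.7 to 56.8%). These intervals cover counting error only.

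The pair of Rpph1 with Rprl3 alone had 2331 and 4027 counts with differentiation and 1936 and 2037 in control, or 3313 and 3857 CPM with differentiation and 1632 and 1461 CPM in control on the scale of pairs. The groups were far apart relative to the spread within each, and the pair rose 2.32-fold (log2 change 1.21, SE 0.16, adjusted p = 0.000272). It kept its call under every alternative run for it, with adjusted p-values of at most 0.0233.

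The pair of Rpph1 with Rprl2 had 125 and 168 counts with differentiation and 88 and 119 in control. It rose by a log2 change of 1.08 (SE 0.25, adjusted p = 0.0168), a call that ended without control 1 (adjusted p = 0.158) or control 2 (0.112). The pair of Rpph1 with Rprl1 had 82 and 132 counts with differentiation and 86 and 94 in control, and its log2 change of 0.80 did not pass (adjusted p = 0.0881). The pair of Rprl2 with Rprl3 had 1 and 4 counts with differentiation and 6 and 1 in control and was too low to be tested.

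Because reads may be divided among the copies, the 4 RNase P RNAs were also merged into a single RNA, an alternative chosen after the values were seen. The merged total had 3960 and 6643 counts with differentiation and 3725 and 4218 in control (log2 change 0.67, SE 0.14, adjusted p = 0.0115). Of these, pairs among the copies had 2539 and 4331 counts with differentiation and 2116 and 2251 in control, and they rose (log2 change 1.19, SE 0.16, adjusted p = 0.000276). Contacts of the merged RNA with all RNAs other than the copies and Dpp8 had 1291 and 2042 counts with differentiation and 1428 and 1762 in control, and their log2 change of 0.33 (SE 0.15) did not pass (adjusted p = 0.169). That change came from a fit of totals, whereas the change of pairs among the copies came from a fit of pairs. The fits were scaled separately, so these changes are not on a common scale and their sizes cannot be compared directly. Set against the Rmrp total of the same library, those outside contacts gave ratios of 0.217 and 0.217 with differentiation and 0.165 and 0.169 in control, without overlap (exact two-sided permutation p = 0.33).

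Most contacts of Dpp8, a gene for a cytosolic dipeptidyl peptidase on chromosome 9, were with RNase P RNAs. It had 5 listed pairs with 899 counts, of which 786 (87.4%) were with Rpph1 and Rprl3. Its pair with Rpph1 had 84 and 171 counts with differentiation and 120 and 136 in control, or 119 and 164 CPM with differentiation and 101 and 97.6 CPM in control (log2 change 0.52, SE 0.26, adjusted p = 0.265). Its pair with Rprl3 had 46 and 99 counts with differentiation and 61 and 69 in control, or 65.4 and 94.8 CPM with differentiation and 51.4 and 49.5 CPM in control (log2 change 0.68, SE 0.31, adjusted p = 0.218). Neither pair passed, although the scaled levels of both were higher in each differentiation library than in either control library. The groups did not overlap for 49.5% of all tested pairs.

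The count with Rprl3 over the count with Rpph1, summed over the 4 libraries, was 0.538 for Dpp8 (275 against 511). For the other partners that both shared and that are named here, it was lower, at 0.118 for Gm42418 (91 against 768), 0.0767 for Gm26917 (90 against 1173), 0.0782 for Gm23935, 0.101 for Cdk8 and 0.108 for Cmss1. Rprl3 had 10 partners outside the 5 members, and 9 of them (90%, or 4.02% of the 224 Rpph1 partners) were also partners of Rpph1.

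Rmrp had more partners than Rpph1, and most partners of Rpph1 were shared. Outside the 5 members, Rmrp had 795 partners and Rpph1 had 224, with 153 in common, which was 19.2% of the Rmrp partners and 68.3% of the Rpph1 partners. Of the Rmrp pairs, 682 (85.7%) were with protein-coding RNAs other than those of ribosomal proteins, 28 with small nucleolar RNAs, which guide the modification of ribosomal RNA, and 14 with RNAs of ribosomal proteins. Of the Rpph1 pairs, 184 (80.7%) were with such protein-coding RNAs, 6 with small nucleolar RNAs and 4 with RNAs of ribosomal proteins, a similar make-up that was not tested. The 3 largest pairs held 40.2% of the Rmrp counts, and 232 of its pairs had 10 counts or fewer over the 4 libraries.

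Gm42418 and Gm26917 together held 33.6 ± 0.706% of the Rmrp counts with differentiation and 34.6 ± 2.25% in control (SD, n = 2 each), with overlapping libraries (exact two-sided permutation p = 1). Neat1 and Malat1 together held 1.50 ± 0.00131% of the Rmrp counts with differentiation and 3.68 ± 0.182% in control, without overlap (p = 0.33 in the same exact test). Of the Rpph1 counts, Gm42418 and Gm26917 held 9.82 ± 0.0573% with differentiation and 12.1 ± 1.88% in control, and Neat1 and Malat1 held 0.646 ± 0.142% with differentiation and 2.76 ± 0.0172% in control. Neither Rpph1 share overlapped between the groups (exact p = 0.33 each). Shares of a whole are not independent, and the part of the larger share of copies in these differences was not tested. In Rpph1 counts, Gm42418 and Gm26917 had 376 and 634 with differentiation and 386 and 545 in control. Neat1 and Malat1 had 21 and 48 Rpph1 counts with differentiation and 99 and 113 in control.

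**Figure D2:**
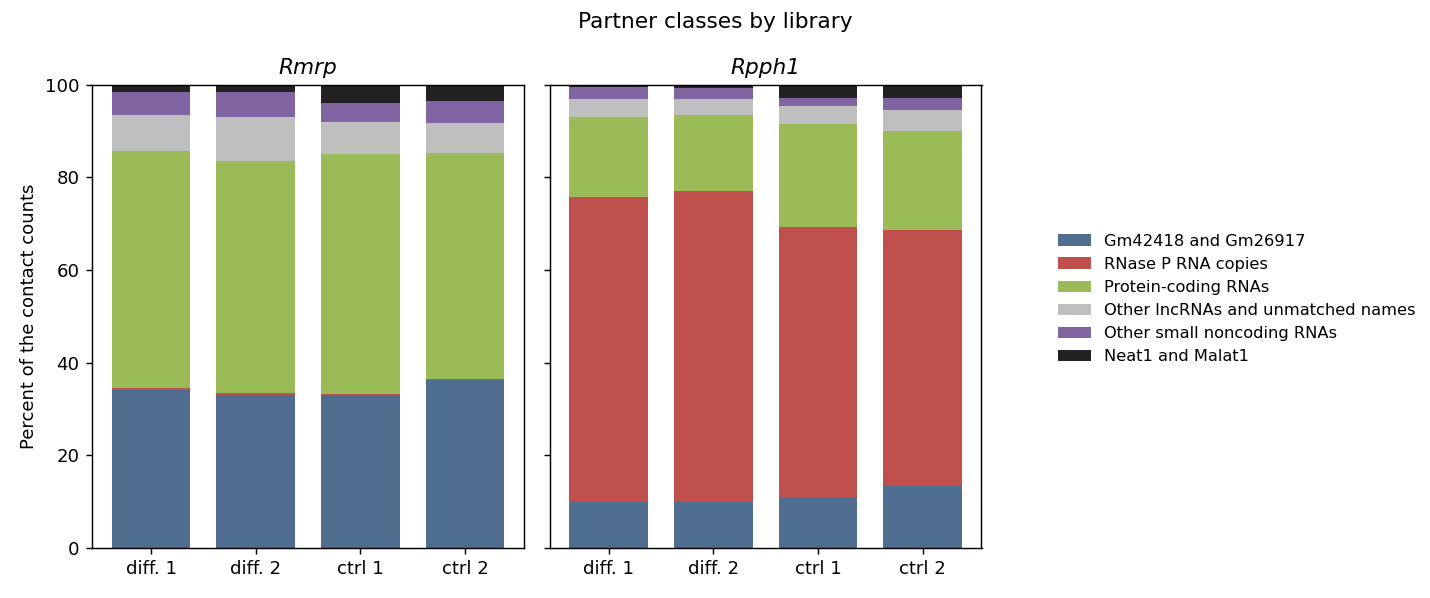
Share of the contact counts of Rmrp (left) and Rpph1 (right) by class of partner, in percent, in each differentiation (diff.) and control (ctrl) library. Gm42418 and Gm26917 hold about the same share of Rmrp counts in all 4 libraries, and the copies hold more of the Rpph1 counts in both differentiation libraries than in either control library.

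To set partners of different abundance side by side, the count of a pair was divided by the count expected if between-RNA contacts were drawn in proportion to the totals of both RNAs, leaving out pairs among the RNase P RNAs and with Dpp8. As means over the 4 libraries, the ratio for Gm26917 was 2.05 with Rmrp and 1.80 with Rpph1, and that for Gm42418 was 1.18 with Rmrp and 1.15 with Rpph1. It was 2.97 with Rmrp and 2.76 with Rpph1 for Cdk8, the gene of a kinase of the Mediator complex. Rn7sk, the RNA that holds the elongation factor P-TEFb inactive, had 1.61 with Rmrp and 5.09 with Rpph1. These ratios are descriptions without a test.

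Lrp4, a gene for a receptor of the low-density lipoprotein receptor family, was chosen after its values were seen. Its ratio with Rmrp was 16.2 and 16.1 with differentiation and 11.3 and 10.5 in control, and with Rpph1 it ranged from 1.09 to 7.42. The Rmrp pair had 64 and 105 counts with differentiation and 66 and 60 in control, and its log2 change of 0.96 did not pass (adjusted p = 0.0664).

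Of the 1035 pairs of the members, 399 had enough counts to be tested. Of these, 10 rose and 4 fell, or 3.51%, against 5.24% called among all 31688 tested pairs and 3.55% among the 27249 that joined different RNAs, so the members' pairs were called about as often as others. For Rmrp, 4 of 331 tested pairs rose and 3 fell (2.11%), with a median log2 change of 0.09. For Rpph1, 6 of 63 tested pairs rose and 1 fell (11.1%), with a median of 0.84, against -0.05 over all between-RNA pairs and against 1.3% called higher and 2.25% called lower among them. Of 228 listed Rpph1 pairs 63 were tested, and a low pair could pass the filter through its higher group alone. The same filter was applied to all pairs, and its part in the Rpph1 median was not tested. Most calls rested on all 4 libraries, and 2 of the 14 called pairs, Rpph1 with Rprl3 and Rmrp with Neat1, kept their call when each library was left out in turn. More of these calls were lost without a control library than without a differentiation library. This was not particular to the members. Calls over all tested pairs also fell without either control library and rose without either differentiation library.

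**Figure D3:**
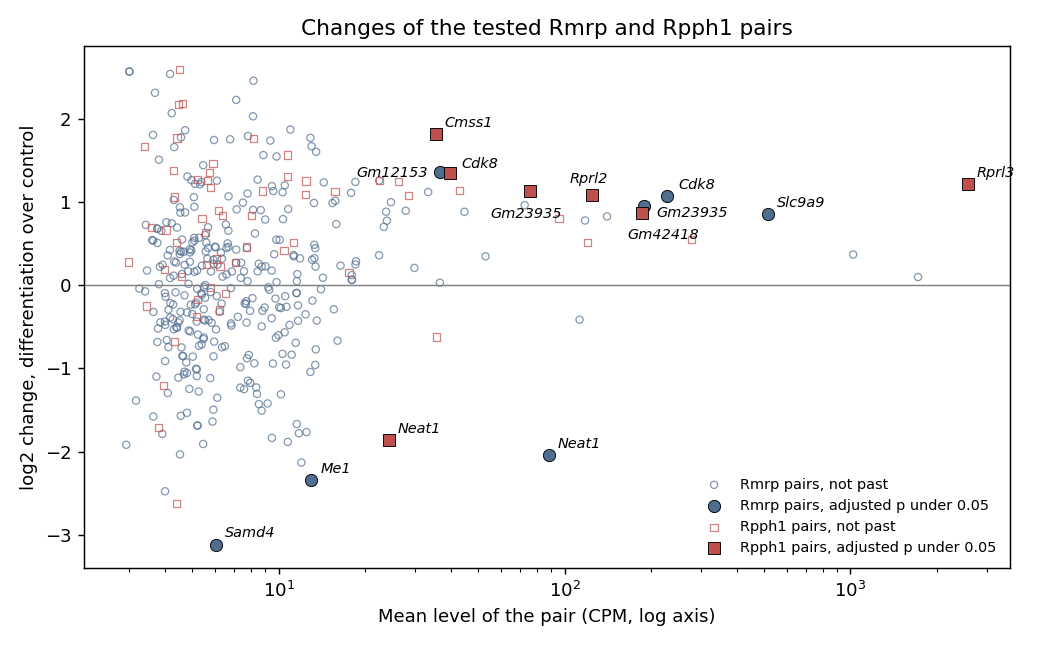
Log2 change of each tested pair of Rmrp (circles) and Rpph1 (squares), differentiation over control, against the mean level of the pair in CPM (log axis). Filled symbols, named by the partner, passed an adjusted p under 0.05, and the pair of Rpph1 with Rprl3 lies farthest to the right at 1.21.

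The pairs with the most Rmrp counts were those with Gm26917 and Gm42418. The pair of Rmrp with Gm26917 had 1194 and 1946 counts with differentiation and 1868 and 2443 in control, with means of 1781 ± 118 CPM with differentiation and 1663 ± 126 CPM in control. These overlapped, and the log2 change of 0.10 (SE 0.16, adjusted p = 0.807) turned to -0.04 under column totals alone, where the median of all pairs was -0.12. The pair of Rmrp with Gm42418 had 831 and 1172 counts with differentiation and 984 and 1329 in control, with means of 1152 ± 41.5 CPM with differentiation and 891 ± 87.7 CPM in control. The scaled levels did not overlap, and the log2 change of 0.37 (SE 0.18) did not pass (adjusted p = 0.245).

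Rpph1 paired with the same RNAs. Its pair with Gm42418 had 167 and 256 counts with differentiation and 136 and 209 in control, or 241 ± 5.53 CPM with differentiation and 132 ± 25.0 CPM in control, and rose by a log2 change of 0.87 (SE 0.23, adjusted p = 0.0397). That call ended without control 1 (adjusted p = 0.338) or control 2 (0.130), under column totals alone (0.0850), without the low-count filter (0.115) and without Neat1 pairs (0.0578). Its pair with Gm26917 had 209 and 378 counts with differentiation and 250 and 336 in control, and the log2 change of 0.55 (SE 0.22) did not pass (adjusted p = 0.154). The contact totals of these partners had log2 changes of -0.26 for Gm42418 (adjusted p = 0.255) and -0.50 for Gm26917 (adjusted p = 0.0296).

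The pairs with Neat1, the RNA that scaffolds paraspeckles, fell for both RNAs. The pair of Rmrp with Neat1 had 21 and 40 counts with differentiation and 159 and 210 in control, or 34.1 ± 5.98 CPM with differentiation and 142 ± 11.8 CPM in control (log2 change -2.04, SE 0.29, adjusted p = 0.000514). The pair of Rpph1 with Neat1 had 4 and 15 counts with differentiation and 38 and 63 in control (log2 change -1.86, SE 0.48, adjusted p = 0.0309). The call for Rpph1 ended without differentiation 1 (adjusted p = 0.0715) or control 2 (0.207), and without differentiation 2 its log2 change was -2.75.

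The fall was shared by Neat1 pairs at large. The contact total of Neat1 changed by -2.34 (adjusted p = 3.07e-05), and 268 of its 801 tested pairs with another RNA fell, with a median of -1.99. With Malat1, a nuclear speckle RNA, the pair of Rmrp had 68 and 101 counts with differentiation and 170 and 160 in control (log2 change -0.41, adjusted p = 0.390). That of Rpph1 had 17 and 33 counts with differentiation and 61 and 50 in control (log2 change -0.62, adjusted p = 0.379). Neither passed, beside a change of -1.09 in the contact total of Malat1 (adjusted p = 0.00106). Whether a pair changed by a different amount than its partner's total was not tested, and pairs and totals were scaled in separate fits.

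Several pairs with other RNAs rose for both Rmrp and Rpph1. With Cdk8, Rmrp had 203 and 346 counts with differentiation and 163 and 221 in control (log2 change 1.07, SE 0.22, adjusted p = 0.00924), and Rpph1 had 38 and 63 with differentiation and 26 and 32 in control (log2 change 1.35, SE 0.36, adjusted p = 0.0342). With Gm23935, which the gene table used here did not name, Rmrp had 147 and 304 counts with differentiation and 140 and 197 in control (log2 change 0.95, SE 0.24, adjusted p = 0.0294), and Rpph1 had 71 and 112 with differentiation and 41 and 83 in control (log2 change 1.14, SE 0.31, adjusted p = 0.0413). In raw counts the differentiation and control libraries overlapped for these pairs other than that of Rpph1 with Cdk8, since the libraries differed in size, and the scaled levels did not overlap.

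All 4 of these calls ended when a single library was left out. The Rmrp pair with Cdk8 was lost without control 1 (adjusted p = 0.116) or control 2 (0.0681), and the Rpph1 pair with Cdk8 without control 1 (0.158), control 2 (0.191) or differentiation 2 (0.0933), under column totals alone (0.0580) and without Gm42418 and Gm26917 pairs (0.0611). The Rmrp pair with Gm23935 was lost without control 1 (0.220), control 2 (0.121) or differentiation 2 (0.115), under column totals alone (0.0637), without the filter (0.0567) and without Gm42418 and Gm26917 pairs (0.0635). The Rpph1 pair with Gm23935 was lost without control 1 (0.334), under column totals alone (0.0732), without Gm42418 and Gm26917 pairs (0.0811) and without Neat1 pairs (0.0621). The contact totals of Cdk8 and Gm23935 changed by 0.26 (adjusted p = 0.290) and 0.29 (adjusted p = 0.212).

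Other pairs passed for a single member. With Slc9a9, a gene for an endosomal sodium-proton exchanger, Rmrp had 471 and 681 counts with differentiation and 475 and 458 in control, or 661 ± 12.2 CPM with differentiation and 364 ± 50.8 CPM in control (log2 change 0.86, SE 0.20, adjusted p = 0.0159). The Rpph1 pair with Slc9a9 had 46 and 55 counts with differentiation and 36 and 32 in control (log2 change 1.14, adjusted p = 0.0711). The contact total of Slc9a9 itself changed by -0.29 (adjusted p = 0.246). The Rmrp call ended without control 1 (adjusted p = 0.0750), control 2 (0.313) or the filter (0.109).

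With Cmss1, Rpph1 had 33 and 66 counts with differentiation and 24 and 16 in control, or 55.1 ± 11.5 CPM with differentiation and 15.9 ± 6.19 CPM in control (log2 change 1.81, SE 0.41, adjusted p = 0.0138, and 0.171 without control 2). The Rmrp pair with Cmss1 had 82 and 189 counts with differentiation and 91 and 136 in control (log2 change 0.78, adjusted p = 0.112). Whether the changes of Rmrp and Rpph1 pairs with the same partner differed from each other was not tested, so a call in 1 of them does not set them apart. The pair of Rmrp with Shroom3, a gene for an actin-binding protein of cell shape, had 104 and 221 counts with differentiation and 138 and 122 in control and did not pass (log2 change 0.83, adjusted p = 0.0778).

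**Figure D4:**
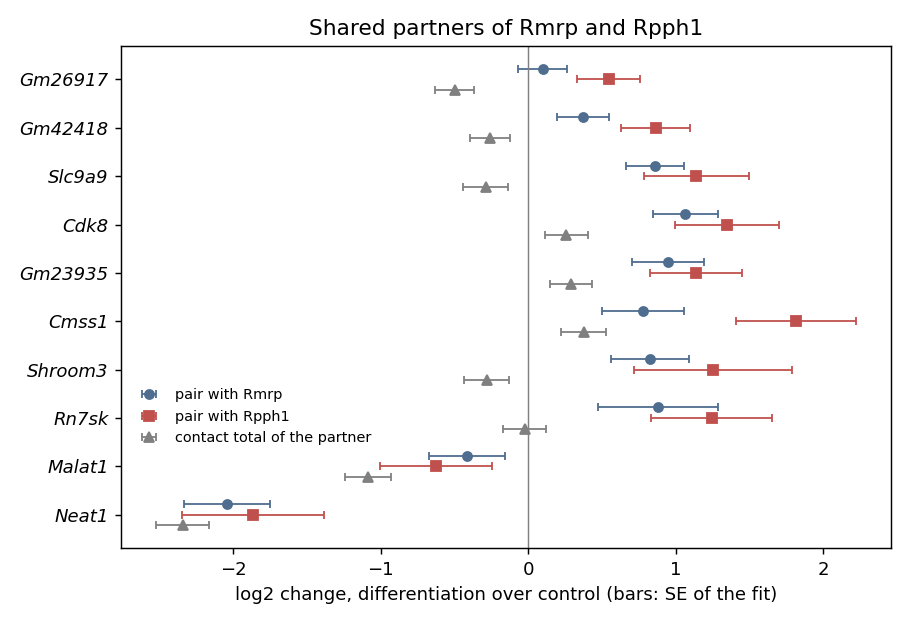
Log2 change, differentiation over control, of the Rmrp pair (circles), the Rpph1 pair (squares) and the contact total of the partner itself (triangles), for 10 shared partners, with bars for the SE of the fit. The pairs with Neat1 and Malat1 lie below 0 together with the totals of those RNAs. The pairs of Slc9a9, Gm42418, Gm26917, Shroom3 and Rn7sk lie above 0 while the totals of those partners lie below it. Pairs and totals were scaled in separate fits, so they do not share a common 0.

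The remaining called pairs of Rmrp were small. Its pair with Gm12153, a long noncoding RNA, had 33 and 61 counts with differentiation and 24 and 29 in control and rose (log2 change 1.36, SE 0.37, adjusted p = 0.0392). Its pair with Me1, the gene of cytosolic malic enzyme, had 5 and 2 counts with differentiation and 28 and 27 in control and fell (log2 change -2.35, SE 0.64, adjusted p = 0.0394). Its pair with Samd4, the gene of an RNA-binding repressor of translation, had 1 and 1 counts with differentiation and 13 and 15 in control (log2 change -3.12, SE 0.84, adjusted p = 0.0376).

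On summed counts the Samd4 pair stood at 2 with differentiation against 28 in control, a scaled ratio of 0.105 with an exact 95% counting interval of 0.0122 to 0.418. Its counts with differentiation were the lowest that a listed pair can have. The interval pools the libraries of a group, covers counting error only and was made for a pair already called, so it adds no support to the call. The contact totals of Me1 and Samd4 also fell, by 1.50 (adjusted p = 1.08e-04) and by 0.94 (adjusted p = 0.00334) on the log2 scale. That of Gm12153 changed by -0.18 (adjusted p = 0.518). The calls of the Gm12153 and Me1 pairs ended without control 1 (adjusted p = 0.161 and 0.116), control 2 (0.207 and 0.0705) or differentiation 2 (0.157 and 0.250), and that of the Samd4 pair ended whichever library was left out (0.0506 to 0.175). The Gm12153 call also ended under column totals alone (0.0638), with DESeq2 (0.0556), without Gm42418 and Gm26917 pairs (0.0672) and without Neat1 pairs (0.0541), and the Me1 call with DESeq2 (0.0895) and without Neat1 pairs (0.0531). The log2 change of the Me1 pair was -3.41 without differentiation 1 and -1.58 without differentiation 2.

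Contacts with other abundant noncoding RNAs did not pass. The pair of Rmrp with Rn7sk had 45 and 55 counts with differentiation and 20 and 63 in control (log2 change 0.88, and 1.78 without control 2, adjusted p = 0.229 with all libraries), and that of Rpph1 had 25 and 40 with differentiation and 20 and 20 in control (log2 change 1.24, adjusted p = 0.0882). With Rn7s2, an RNA of the signal recognition particle, Rmrp had 22 and 43 counts with differentiation and 19 and 32 in control (log2 change 0.90, adjusted p = 0.222), and Rpph1 had 9 and 6 with differentiation and 2 and 15 in control (log2 change 0.46, adjusted p = 0.803). With Rn7s1, its relative, Rmrp had 7 and 31 counts with differentiation and 19 and 26 in control (log2 change 0.25, adjusted p = 0.848), and Rpph1 had 2 and 6 with differentiation and 3 and 4 in control, too few to test.

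The pair of Rmrp with Rny3, a small RNA bound by the Ro protein, had 2 and 3 counts with differentiation and 6 and 6 in control (log2 change -0.68, adjusted p = 0.690). No pair of a member with Rn45s, Rn7sl1, Rny1 or Terc was listed. Of these, Rn7sl1 was not listed under that name with any RNA, whereas Rny1 and Terc had contact totals of 394 and 35 counts. Rmrp and Rpph1 were also joined to each other, with 22 and 34 counts with differentiation and 8 and 27 in control, or 31.9 ± 0.915 CPM with differentiation and 13.1 ± 8.93 CPM in control. The log2 change of 1.26 (SE 0.49) did not pass (adjusted p = 0.148), and it was 2.23 without control 2 (adjusted p = 0.0780).

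The smaller Rprl pairs did not pass the test. Rprl3 with Gm42418 had 19 and 38 counts with differentiation and 16 and 18 in control, or 27.0 and 36.4 CPM with differentiation and 13.5 and 12.9 CPM in control (log2 change 1.27, SE 0.44, adjusted p = 0.101). Rprl3 with Gm26917 had 22 and 25 counts with differentiation and 16 and 27 in control (log2 change 0.72, adjusted p = 0.385). Those of Rprl3 with Gm23935 and Cdk8 had at most 11 counts in a library (log2 changes 1.78 and 1.26, adjusted p = 0.145 and 0.372). The scaled levels of all 6 tested Rprl3 pairs, among them those with Rpph1 and Dpp8, were without overlap between the groups, as were 49.5% of all tested pairs. Reads may be divided between Rprl3 and Rpph1, so these pairs may not be separate results from those of Rpph1. Rprl2 with Gm26917 had 5 and 18 counts with differentiation and 11 and 12 in control (log2 change 0.50, adjusted p = 0.703).

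Few partners lay close to the members on the chromosome. Parp2, a DNA repair gene whose annotated span begins 125 bases from Rpph1, and Ccdc107, which begins 280 bases from Rmrp, were not listed as partners of them. Of the Rmrp partners, 48 lay on chromosome 4, the nearest being Tpm2, a tropomyosin gene, at 20.7 kb with 6 and 6 counts with differentiation and 3 and 2 in control. The next was Tln1, the gene of the adhesion protein talin, at 38.5 kb with 3 and 5 counts with differentiation and 17 and 15 in control (log2 change -1.43, SE 0.64, adjusted p = 0.217). Of the Rpph1 partners, 8 lay on chromosome 14, the nearest being Osgep at 107.6 kb with 5 and 2 counts with differentiation and 1 and 2 in control.

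The RNAs of the protein subunits of both enzymes were poorly covered. Of 11 subunit genes, 3 were listed and tested, and 0 passed with edgeR or with DESeq2, while 1, Pop1, had an unadjusted p under 0.05. Pop1, the largest subunit, had 72 and 112 counts with differentiation and 85 and 63 in control (log2 change 0.57, adjusted p = 0.182, unadjusted p = 0.0488). Rpp30 had 46 and 56 with differentiation and 45 and 46 in control (0.45, adjusted p = 0.355), and Pop4 had 30 and 50 with differentiation and 37 and 59 in control (0.01, adjusted p = 0.989). Their median log2 change was 0.45, beside a median of about 0.00 over all 10993 RNAs.

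The counts called in the lists that follow stand against 12.2% called over all contact totals. Of 8 tested RNAs of the other RNA polymerase III products, 2 fell, with a median of 0.09. They were Rny1 (log2 change -1.11, adjusted p = 0.00813) and Rny3 (-1.58, adjusted p = 6.19e-04), both small RNAs of Ro particles. Of 18 tested genes of precursor ribosomal RNA processing, 1 rose, with a median of 0.01, and DESeq2 called 2. That gene was Fbl, which encodes the methyltransferase fibrillarin, with 403 and 703 counts with differentiation and 261 and 334 in control (log2 change 1.15, SE 0.16, adjusted p = 0.00106).

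Of 8 tested genes of transfer RNA processing, 0 passed with edgeR or DESeq2 and 1 had an unadjusted p under 0.05, with a median of 0.54. Elac2, which trims the trailing end of transfer RNAs, had a log2 change of 0.56 (adjusted p = 0.122), and Tsen54, a subunit of the splicing endonuclease of transfer RNAs, one of 0.18 (adjusted p = 0.673). Of 12 tested genes of RNA polymerase III and its factors, 0 passed with edgeR or DESeq2 and 1 had an unadjusted p under 0.05, with a median of 0.06. Snapc4, of the complex that binds small nuclear RNA promoters, had a log2 change of -0.24 (adjusted p = 0.424), and Bdp1, of transcription factor TFIIIB, one of -0.01 (adjusted p = 0.984). The telomerase genes Tert (log2 change -0.86, adjusted p = 0.134) and Terc (1.51, adjusted p = 0.244) did not pass either.

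The RNAs whose contact totals varied over the 4 libraries most like those of the members were found by Euclidean distance of centred log2 CPM. Centring removed the mean of each RNA, so likeness was in pattern and not in level. The search covered 4122 RNAs with at least 200 counts. Nearest to Rmrp were Abr at 0.0202, Taf1 at 0.0220 and Gm28496 at 0.0268, where the median distance was 0.545. Nearest to Rpph1 were Fez2 at 0.0419, Gm9816 at 0.0476 and Btaf1 at 0.0508, where the median was 0.858. Nearest to Rprl3 were Chrac1, Gm11273 and Cox5b, to Rprl2 were Rps3a1, Alcam and Cluh, and to Rprl1 were Cep128, Rtcb and Fkbp5.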

How the data were processed

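The authors deposited whole-number counts, not normalized: the chimeric reads that joined 2 RNAs in each library. Per the submitters' processing notes, STAR and GRCm38 were used, with no role or version named. The sources used here do not give how chimeric reads were called or how duplicates, multiply mapped reads and overlapping genes were handled. The members and all gene lists were chosen with earlier results of these data known.

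Tests ran over the whole table with edgeR 4.0.16 (quasi-likelihood F test, R 4.3.3), for pairs and for contact totals, each the sum over the pairs of an RNA in which a within-RNA pair counted once. TMM scaling and a low-count filter (minimum count 5, minimum total 10) were used, with a two-sided Benjamini-Hochberg adjusted p under 0.05. For totals the TMM factors were 1.02 and 1.09 with differentiation and 0.949 and 0.944 in control. For pairs they were 0.949 and 0.957 with differentiation and 1.04 and 1.06 in control. Log2 changes of pairs and of totals are therefore not on a common scale. Totals are not independent, as a pair joining different RNAs adds to 2 of them. CPM were given by edgeR, levels as mean ± SD over 2 libraries, and log2 changes (differentiation over control) with the SE from the fit. Pairs had a biological coefficient of variation of 24.9%, and totals 18.7%. In data simulated from these libraries, 18% of 2-fold and 88% of 4-fold changed pairs were recovered, and 29% and 94% of changed totals. Only features with at least 100 summed counts were changed, at a fixed spread below that fitted for pairs. The median summed count was 15 for Rmrp pairs and 11 for Rpph1 pairs, so these rates do not hold for most of them. Since the labels do not say that libraries came from separate cultures, p-values reflect the spread between these libraries alone, which may be technical.

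Named pairs were the up to 6 largest of each member, all called pairs, and pairs with listed abundant RNAs or another member. From each gene list, up to 4 called genes, or 2 by mean count where none was called, could be named. Cmss1 with Rmrp, Slc9a9 and Shroom3 with Rpph1, Lrp4, Tnc and the chromosomal neighbours were chosen after their values were seen. Coordinates and classes came from a RefSeq table of GRCm38.p6, in which 823 of 866 partner names matched. DESeq2 1.42.0, other scalings and filters, left-out RNAs and left-out libraries were alternatives.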

Additional observations from a re-analysis of the deposited data

How the results depend on the processing

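The Rmrp total had no stable sign: its log2 change was 0.11 under column totals alone, 0.12 over between-RNA pairs only, and -0.083 to 0.024 when each library was left out. Leave-one-out ranges were 0.60 to 0.78 for Rpph1, 0.65 to 0.78 for Rprl2 and 0.80 to 1.03 for Rprl3, and these calls ended without control 1 or control 2. Without pairs among the copies and Dpp8, an alternative chosen after seeing the data, the totals of Rpph1 (0.31, adjusted p = 0.192), Rprl2 (0.21, adjusted p = 0.863) and Rprl3 (0.77, adjusted p = 0.0694) did not pass. The Rprl2 total also did not pass without Gm42418 and Gm26917 pairs (0.68, adjusted p = 0.0711), or, chosen after seeing the data, without those of Neat1 and Malat1 as well (0.63, adjusted p = 0.112). The Rprl1 total passed over between-RNA pairs only (0.68, adjusted p = 0.0326).

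Of the members' pairs, 10 rose, against 5 under column totals alone, 5 without Gm42418 and Gm26917 pairs and 2 to 17 with a library left out. Those that fell numbered 4, against 2 with DESeq2, 1 without Neat1 pairs and 1 to 3 with a library left out. Part of these drops was fixed in advance. Without Neat1 pairs, the fallen pairs of Rmrp and Rpph1 with Neat1 were absent, and 8 of the 12 remaining called pairs kept their call. Without Gm42418 and Gm26917 pairs, the risen pair of Rpph1 with Gm42418 was absent, and 9 of 13 kept theirs. With DESeq2 the fallen pair of Rmrp with Samd4 had no adjusted p, and 11 of 13 kept theirs. The Rmrp share of Gm42418 and Gm26917 differed by -2.61 to 0.565 percentage points with a library left out. Signs also turned for Rmrp with Gm26917 under column totals (-0.042), and, with a library left out, for Rmrp with Rn7s1 (-0.80 to 0.77), Rpph1 with Rn7s2 (-0.27 to 2.31) and Rprl2 with Gm26917 (-0.32 to 0.94). Pop4 changed by -0.026 without the filter, -0.059 without Gm42418 and Gm26917, -0.11 without those and Neat1 and Malat1, and -0.20 to 0.27 with a library left out. Beyond the pairs that a setting removed, the causes were not tested.

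With the replicate number as a block, 12 pairs of the members rose and 5 fell, all 14 called pairs kept their call, and the Rpph1 total changed by 0.67 (adjusted p = 8.73e-04). The labels do not say that numbers pair libraries, and same-numbered libraries deviated together with a correlation of 0.14 over totals and 0.02 over pairs. Pairs with few counts limit the calls: 399 of 1035 could be tested.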

Other observations

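Among the smaller partners of Rmrp, some counts repeated exactly between pairs. Of 273 Rmrp pairs with at least 20 counts, 6 matched another Rmrp pair in every library. Rpl12, a ribosomal protein gene, and Snora65, a small nucleolar RNA hosted by it, both had 3 and 33 counts with differentiation and 15 and 33 in control. None of the 52 Rpph1 pairs of that size repeated another. The balance of Gm42418 to Gm26917 counts was 0.696 and 0.602 with differentiation and 0.527 and 0.544 in control for Rmrp, and 0.799 and 0.677 with differentiation and 0.544 and 0.622 in control for Rpph1, without overlap in either (exact two-sided permutation p = 0.33 each). This was not particular to the members. The contact totals of Gm42418 and Gm26917 averaged 65306 and 58571 CPM with differentiation and 78040 and 82656 CPM in control, a balance that moved the same way.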
